A study of Arabidopsis thaliana with 28 samples.

Results

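The elongation zone of the Arabidopsis root tip is the stretch behind the dividing cells, where cells lengthen. Its transcript profile at 6 h after transfer to fresh medium was compared with that at 3 h. The comparison used 8 of the 28 arrays of the study, all the elongation zone arrays of these times. There were 2 arrays of control medium at 3 h, 2 of control medium at 6 h, 2 of hydrogen peroxide (H2O2) at 3 h and 2 of H2O2 at 6 h. Medium was kept as a stratum, and the result is the mean of the changes within each medium. A change in a single medium therefore also enters it, at a reduced size, and each medium is given alone as well.

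All groups were wild-type seedlings of the accession Columbia-0, 5 days old, grown on Murashige and Skoog (MS) medium with sucrose under 16 h of light and 8 h of dark. The H2O2 groups had been moved to MS medium with 1 mM H2O2. The control groups were labelled as MS medium without it. A razor blade was used to part the meristematic from the elongation zone, 30 roots were pooled for each biological replicate, and RNA went through 2 cycles of amplification before it was read on Affymetrix ATH1 arrays. The clock time of harvest is not given in the sources used here, so time after transfer and time of day cannot be told apart. An array signal comes from a mixture of cells, so fewer cells of a type and less RNA per cell cannot be told apart either.

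Cells that leave the root meristem stop dividing and elongate by loosening their walls. Expansins and xyloglucan endotransglucosylases act on the wall as it extends, and class III peroxidases can either loosen or stiffen it through the reactive oxygen they make or use. H2O2 is itself a signal at this transition. The transcription factor UPB1 is known to act there by repressing peroxidase genes. Cells exposed to added H2O2 are known to induce detoxifying enzymes such as glutathione transferases and glucosyltransferases.

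Signals are linear intensities, set by the deposited scaling to a trimmed mean of 250 on every array. Log2 fold changes are of log2(signal + 16), 6 h over 3 h, and are followed by the standard error (SE) from the model. They understate the change of dim genes. The 95% confidence interval (CI) of a fold change comes from the same model. A probe set, the group of probes that reads 1 transcript, was called at a limma adjusted p under 0.05 over the 22746 tested. The number of arrays limits the precision of every value.

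The tissue carried the expression of its label at both times. The summed signal of 4 elongation zone genes, namely UPB1, XTH21, XTH18 and EXPB1, lay between 4571 and 6365 at 3 h and between 5189 and 6723 at 6 h. In the meristematic zone arrays of the same times it lay between 181 and 276. BBM, a regulator of stem cell identity in the meristem, stood between 1.96 and 3.41 in the 8 elongation arrays, against group means of 137 to 151 in the meristematic zone. JKD, the other of the 2 measured genes of the meristem regulator list, did not part the zones this way. Its group means were 69.9 to 109 in the elongation zone and 60.6 to 81.5 in the meristematic zone. Position on an axis running from the mean of the 0 h meristematic arrays, at 0, to that of the 0 h elongation arrays, at 1, was 1.16 ± 0.0646 (SD, n = 4) at 3 h and 1.19 ± 0.0610 (n = 4) at 6 h, with an exact permutation p of 0.556 within media. Across probe sets the 2 arrays of each of the 4 groups had a Pearson r of 0.9794 to 0.9846.

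From 3 h to 6 h the elongation zone profile held steady within what these arrays could resolve. Of 22746 probe sets 0 (0%) were called for the mean of both media by limma with Benjamini-Hochberg adjustment, and the smallest adjusted p was 0.0525. At an unadjusted p under 0.05 there were 1138 (5%), of which 580 (2.55%) were higher and 558 (2.45%) lower at 6 h. Leaving out 1 array gave between 0 and 2 calls, with 2 without the first control array of 6 h, 1 without the second, and 1 without the second H2O2 array of 6 h. With the replicate number added to the model as a block there were 9 calls, 4 higher and 5 lower. The labels do not say whether same-numbered arrays are pairs, so the count depends on that choice. The model without the block called 563 probe sets (2.48%) between 1 h and 3 h and 503 (2.21%) between 1 h and 6 h. These last comparisons, added after the values were seen, share the arrays of 1 h with each other, and each shares arrays with 6 h against 3 h.

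**Figure D1:**
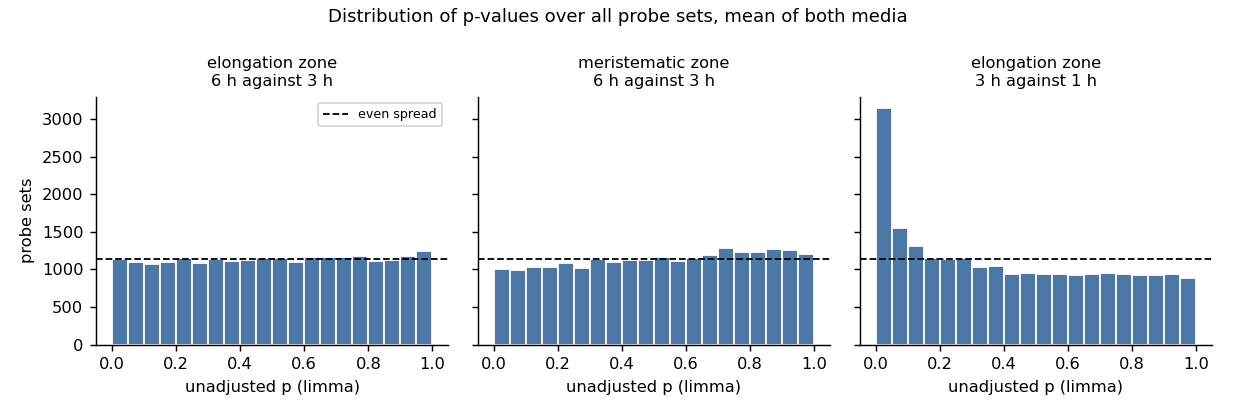
Number of probe sets (y axis) in 20 bins of the unadjusted limma p (x axis) for 6 h against 3 h in the elongation and the meristematic zone and for 3 h against 1 h in the elongation zone. The lowest bin holds 1138, 1006 and 3139 probe sets, and the dashed line marks an even spread over the bins, 1137.3 probe sets each.

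The data also limit how far most transcripts can have moved. The median SE of a log2 fold change was 0.178, and the 95% CI reached a median of 0.372 to either side. For 22106 probe sets (97.2%) the whole interval lay within 1 unit of log2, that is within a factor of 2 on the scale of signal plus 16. For 11411 (50.2%) it lay within 0.5.

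Distances between arrays of 3 h and 6 h were of the size of those between replicates. On control medium the root mean square log2 difference was 0.430 between the replicates of 3 h and 0.375 between those of 6 h. Across the times it ran from 0.367 to 0.433. In H2O2 the replicates differed by 0.381 at 3 h and 0.390 at 6 h, and arrays across the times by 0.364 to 0.413. Of the 4 pairs across the times, 1 on control medium and 2 in H2O2 lay farther apart than either pair of replicates of that medium. Across the times, arrays with the same replicate number differed by 0.367 and 0.374 on control medium and by 0.364 and 0.377 in H2O2. Those with different numbers differed more, by 0.390 and 0.433 on control medium and by 0.413 and 0.401 in H2O2. The meristematic zone did not show this throughout. In H2O2 its arrays differed by 0.379 and 0.385 with the same number and by 0.382 and 0.375 with different numbers. On control medium these were 0.370 and 0.391 against 0.376 and 0.440.

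The media gave separate readings, since they share no array. On control medium alone 1 probe set (0.0044%) was called, 258293_at, which has no gene name in the annotation used here, and 987 (4.34%) had an unadjusted p under 0.05. In H2O2 alone 0 (0%) were called by limma and 1069 (4.7%) had an unadjusted p under 0.05. Leaving out the first control array of 3 h raised the control count to 7, leaving out the second lowered it to 0, and leaving out the first control array of 6 h gave 2. Without the first H2O2 array of 6 h the H2O2 count was 1. The test of the difference between media called 0 (0%), with 874 (3.84%) at an unadjusted p under 0.05.

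What stood out in a medium was largely not seen in the other. Of the 987 probe sets chosen in control medium, 543 (55.0%) had the same sign in H2O2, where 52.7% of all probe sets shared their sign. Their median log2 fold change, turned to the direction of control medium, was 0.636 there, where they were chosen for it, and 0.0272 in H2O2. Of the 1069 chosen in H2O2, 601 (56.2%) had the same sign on control medium, with a median of 0.0470 there. Of the 987, 67 also had an unadjusted limma p under 0.05 in H2O2 with the same sign, and 28 with the opposite sign. Over all 22746 probe sets 1069 (4.7%) had such a p in H2O2. The media share the estimate of spread, which favours a small p in both, and the overlap was not tested. Both 6 h arrays lay beyond both 3 h arrays in each medium, in the same direction, for 1450 probe sets (6.37%), 707 (3.11%) higher and 743 (3.27%) lower. They did so in opposite directions for 1028 (4.52%).

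**Figure D2:**
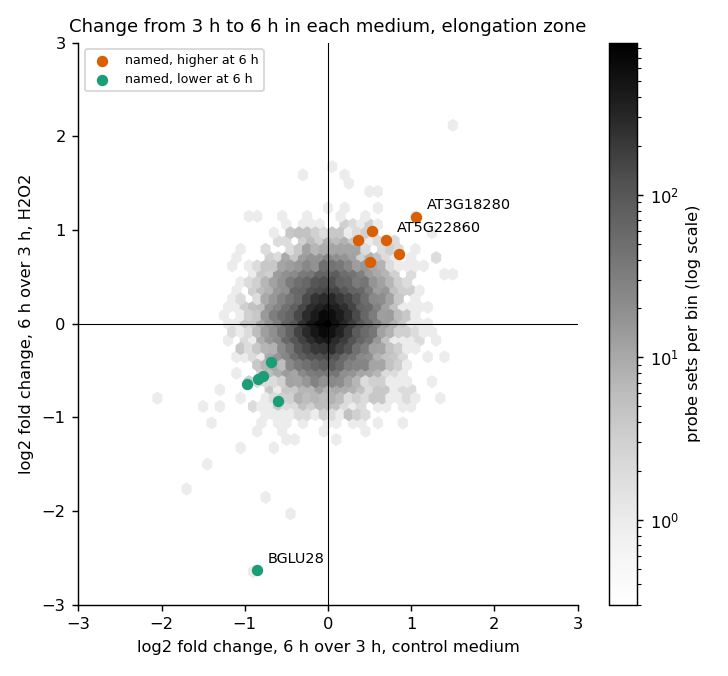
Log2 fold change of 6 h over 3 h in control medium (x axis) and in H2O2 (y axis) for 22746 probe sets, shaded by their number per bin, with the 12 named genes as coloured points. The cloud is centred on 0 in both media with no evident slope (r = 0.0717 across probe sets), and BGLU28 lies far below it in H2O2, at -0.86 and -2.63.

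The meristematic zone, read on arrays of its own but with the model's shared estimate of spread, gave no calls over this interval either. There 0 probe sets (0%) were called by limma and 1006 (4.42%) had an unadjusted p under 0.05. The difference between zones in the change from 3 h to 6 h called 0 (0%), with 925 (4.07%) at an unadjusted p under 0.05. Of the 1138 probe sets chosen in the elongation zone, 653 (57.4%) had the same sign in the meristematic zone, against 53.0% of all probe sets. No change is therefore described as particular to the elongation zone. Without the first or the second H2O2 array of 3 h, or without the second of 6 h, the meristematic count was 1 each time.

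The model without the block called no probe set for the mean of both media. Genes were therefore named by the smallest p-values, 6 in each direction. They were taken among named genes whose 6 h arrays both lay beyond both 3 h arrays in each medium. None of these 12 passed the threshold in that model, and the separation of their arrays is a condition of the choice. Their adjusted p ran from 0.0575 to 0.564 and 8 of them had a mean signal under 50. In the meristematic zone 7 of the 12 had the same sign. Its arrays did not enter the fold changes or the separation used in the choice. They did enter the model's estimate of spread behind the p-values, and the pick of the brightest probe set. The reference table gives only a locus name for 11 of them.

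The smallest adjusted p of a named gene was that of AT5G22860. Its signal was 12.2 and 13.2 at 3 h and 31.6 and 29.4 at 6 h on control medium. In H2O2 it was 31.4 and 22.3 at 3 h and 66.1 and 60.8 at 6 h. Within each medium both 6 h arrays were above both 3 h arrays, and the H2O2 arrays of 3 h overlapped with the control arrays of 6 h. The log2 fold change was 0.80 ± 0.13 (limma adjusted p 0.0575), with 0.69 on control medium and 0.90 in H2O2, and in the meristematic zone it was 0.09 ± 0.13.

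AT3G18280 gave signals of 4.49 and 12.8 at 3 h and 27.6 and 42.6 at 6 h on control medium. In H2O2 they were 31.2 and 19.5 at 3 h and 64.3 and 85.9 at 6 h. The 0 h mean was 9.04 ± 1.2 (SD, n = 2), and the 1 h means were 43.7 ± 26.9 (n = 2) on control medium and 33.2 ± 11.6 (n = 2) in H2O2. On control medium the 3 h arrays were thus about as low as those of 0 h, with the 1 h arrays above both. The log2 fold change from 3 h to 6 h was 1.1 ± 0.23 (limma adjusted p 0.236), and in the meristematic zone -0.14 ± 0.23.

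AT1G62520 had signals of 61.2 and 57.8 at 3 h and 74.6 and 88.2 at 6 h on control medium. In H2O2 they were 40.0 and 39.1 at 3 h and 75.3 and 100.2 at 6 h. Here the H2O2 arrays of 3 h were the lowest of the 8, and the 6 h arrays of both media overlapped. AT5G38820 had signals of 59.8 and 72.6 at 3 h and 105 and 95.5 at 6 h on control medium, and of 95.3 and 86.6 at 3 h and 134 and 175 at 6 h in H2O2. Its 0 h mean of 101 ± 2.42 (SD, n = 2) was as high as the control arrays of 6 h. Log2 fold changes were 0.63 ± 0.13 for AT1G62520 and 0.58 ± 0.14 for AT5G38820, with limma adjusted p-values of 0.236 and 0.339.

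The other 2 genes with higher values at 6 h were dim. AT1G07870 ranged from 4.13 to 20.6 in the 3 h arrays and from 28.2 to 34.5 in the 6 h arrays of both media. AT2G04300 ranged from 0.584 to 1.40 at 3 h and from 1.76 to 22.9 at 6 h, and its second control array of 6 h stayed at 1.76. Their log2 fold changes were 0.80 ± 0.18 and 0.75 ± 0.17, with limma adjusted p-values of 0.288 and 0.281.

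Among genes with lower values at 6 h, BGLU28 had the widest range. It encodes a beta-glucosidase known for breaking down glucosinolates when sulphur is short. At 0 h its signals were 5.55 and 21.4, and at 1 h they were 8.44 and 24.7 on control medium and 17.9 and 2.26 in H2O2. At 3 h they were 79.4 and 64.5 on control medium and 963 and 2318 in H2O2, and at 6 h 36.2 and 28.8 on control medium and 119 and 425 in H2O2. The 3 h arrays were the highest of the elongation zone series in both media, and the 6 h arrays in H2O2 were still above every control array.

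For BGLU28 the log2 fold change from 3 h to 6 h was -1.74 ± 0.39 (limma adjusted p 0.281, 95% CI -2.55 to -0.94), with -0.86 on control medium and -2.63 in H2O2. The difference between media, H2O2 minus control, was -1.77 on the log2 scale and had a limma adjusted p of 1.00. The meristematic zone had group means of 18.3 and 22.8 on control medium and 285 and 61 in H2O2 at 3 h and 6 h.

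AT5G45430 was the brightest of the other lower genes. Its signal was 304 and 315 at 3 h and 179 and 194 at 6 h on control medium, and 230 and 279 at 3 h and 183 and 190 at 6 h in H2O2. All 4 arrays of 6 h lay within 179 to 194, close to the 0 h mean of 171 ± 12.5 (SD, n = 2), while the 3 h arrays of both media lay above. The log2 fold change was -0.55 ± 0.13 (limma adjusted p 0.339), and in the meristematic zone -0.32 ± 0.13.

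The remaining genes, AT5G55520, AT3G53960, AT5G66780 and AT3G60060, had signals between 9 and 38.3 at 3 h and between 0.647 and 8.68 at 6 h. Their log2 fold changes were -0.71 ± 0.16, -0.81 ± 0.19, -0.67 ± 0.17 and -0.71 ± 0.18 in that order, with limma adjusted p-values of 0.288 to 0.564. Values this low are near the floor of the array.

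**Figure D3:**
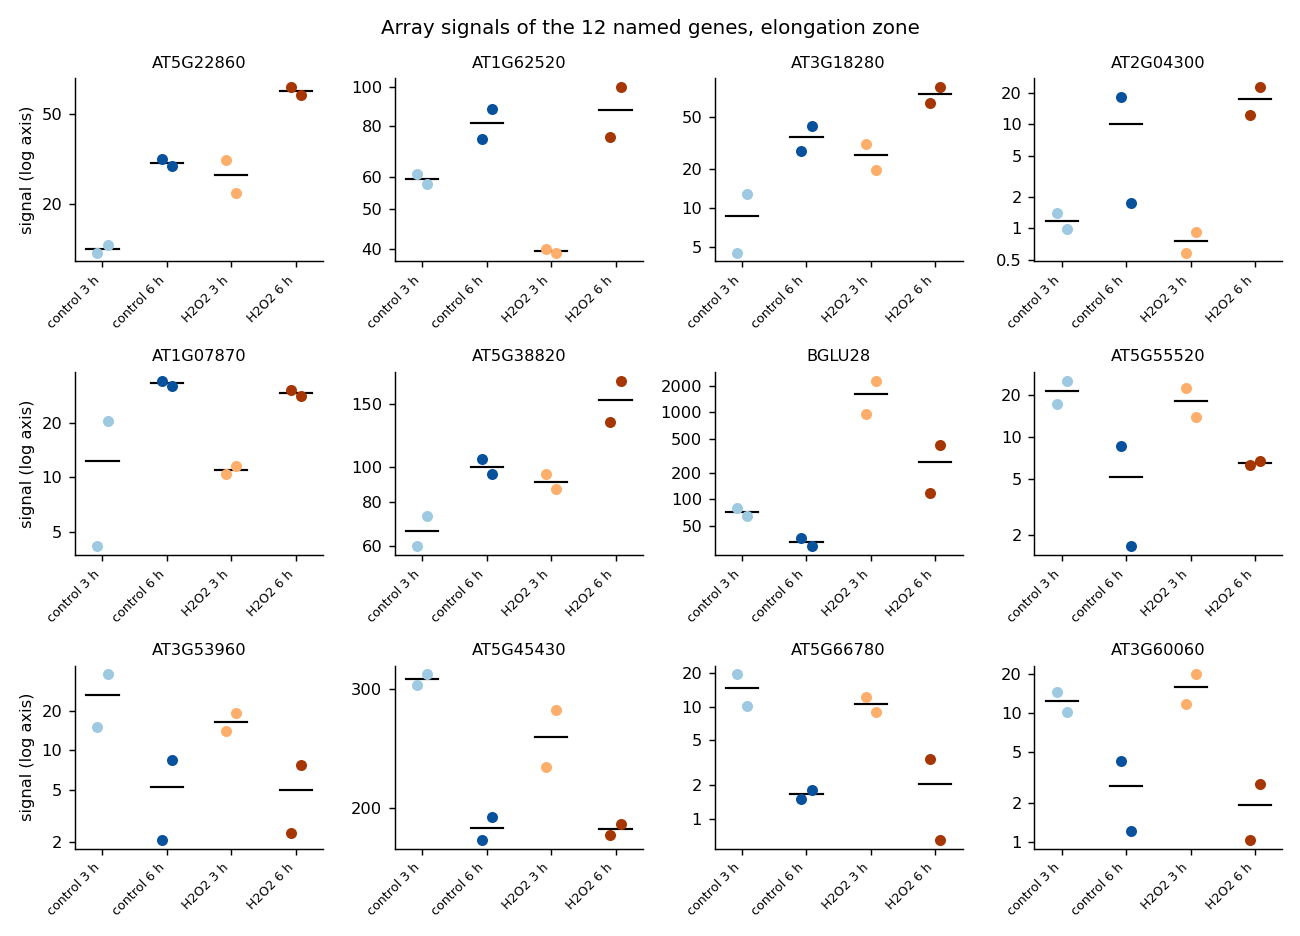
Signal on a log axis (y axis) of the 12 named genes in the 8 elongation zone arrays, by medium and time (x axis), with points for arrays and bars for the mean of 2. In each panel the 6 h points lie beyond the 3 h points of the same medium, which is how the genes were chosen, and BGLU28 spans the widest range, from 28.8 to 2318.

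A log2 fold change beyond 1 in either direction was found for 16 probe sets, 11 lower and 5 higher at 6 h, and 5 of them had a named gene. For 12 of the 16 both 6 h arrays lay beyond both 3 h arrays in the same direction in each medium, against 6.37% of all probe sets. The 16 were chosen for a large change on these same arrays, which favours such separation, so the count is no separate evidence. Besides BGLU28 and AT3G18280 the 5 named genes were MT1C, AT5G04120 and AT2G38870, looked at after their values were seen. MT1C, a metallothionein, which binds metal ions, had signals of 3.72 and 34.6 at 3 h and 72.8 and 76.3 at 6 h on control medium, and of 14.2 and 47.9 at 3 h and 46.9 and 541 at 6 h in H2O2. Its H2O2 arrays overlapped between the times, the second replicate was the higher in all 4 groups, and the log2 fold change of 1.81 ± 0.61 had a limma adjusted p of 0.798.

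AT5G04120 had signals of 137 and 23.7 at 3 h and 3.88 and 0.998 at 6 h on control medium, and of 45.2 and 13.1 at 3 h and 17.2 and 0.978 at 6 h in H2O2. AT2G38870 had signals of 168 and 61.1 at 3 h and 22.5 and 30.3 at 6 h on control medium, and of 94.4 and 56.5 at 3 h and 22.5 and 40.9 at 6 h in H2O2. All 4 of its 6 h arrays were below its 4 arrays of 3 h. AT5G04120 overlapped between the times in H2O2, and the limma adjusted p-values of the 2 genes were 0.642 and 0.796.

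Gene groups that follow growth were read from lists. Over 41 lists, 28 of which had a measured member, 0 of 231 members (0% of all probe sets) were called, and 9 members (3.9%) had an unadjusted p under 0.05, against 5% of all probe sets. The 11 lists with at least 5 measured members had medians between -0.127 and 0.188, where the median of all named genes was 0.00181.

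Class III peroxidases gave more signal here than in the meristematic zone. Their summed signal lay between 46833 and 62331 in the 8 arrays, against 9988 to 13133 there, with means of 53699 ± 6857 (SD, n = 4) at 3 h and 53586 ± 3972 (n = 4) at 6 h (exact permutation p 1.0). Of the family's 73 loci 55 were measured, of which 35 had a positive and 20 a negative log2 fold change, with a median of 0.111. At an unadjusted p under 0.05 there were 3 higher (2.55% of all probe sets) and 1 lower (2.45%). The list was completed after values were seen. AT4G26010 reached 0.73 ± 0.33 with signals of 50.5 and 35.1 at 3 h and 44.5 and 163 at 6 h on control medium, and of 30.7 and 25 at 3 h and 81.6 and 30.5 at 6 h in H2O2, so the times overlapped in both media.

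UPB1, the repressor of peroxidase genes, had signals of 831 and 1471 at 3 h and 1072 and 1486 at 6 h on control medium. In H2O2 they were 1288 and 1061 at 3 h and 1599 and 1804 at 6 h. The times overlapped on control medium and not in H2O2, and the log2 fold change was 0.36 ± 0.32 (95% CI -0.32 to 1.04). XTH21, a xyloglucan endotransglucosylase, had signals of 498 and 423 at 3 h and 507 and 501 at 6 h on control medium, and of 477 and 466 at 3 h and 743 and 614 at 6 h in H2O2. Its log2 fold change was 0.32 ± 0.17 (95% CI -0.05 to 0.68), and the 6 h arrays were above those of 3 h in both media.

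Over the 9 measured xyloglucan endotransglucosylases the median was 0.188, with 6 positive and 3 negative, and over the 18 expansins -0.049, with 6 positive and 12 negative, and 0 of either list (0% of all probe sets) were called. EXPB1, the brightest of the elongation list, ranged from 2595 to 3713 in the 8 arrays with a log2 fold change of -0.08 ± 0.16. The root hair expansins EXPA7 and EXPA18 had 0.25 ± 0.26 and 0.19 ± 0.16. The 95% CI of each of these 3 genes included 0.

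Among cell division genes 0 (0% of all probe sets) were called. Of 7 measured, 4 were positive and 3 negative, with a median of 0.0367. SIM, an inhibitor of the cell cycle that acts in cells entering endoreplication, ranged from 1255 to 1795 with a log2 fold change of 0.19 ± 0.23. PRL, a subunit of the DNA replication helicase, ranged from 106 to 260 with 0.23 ± 0.23. AUR2 and ICU2 had 0.15 ± 0.23 and 0.04 ± 0.17. The 3 negative members, BUBR1, AUR3 and AUR1, had -0.28 ± 0.30, -0.12 ± 0.14 and -0.08 ± 0.13. The summed signal of the list, most of which came from SIM on every array, was 1825 ± 171 (SD, n = 4) at 3 h and 2048 ± 147 (n = 4) at 6 h, with an exact permutation p of 0.167.

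The circadian list had 2 measured members. GI, a clock component that peaks in the evening, had signals of 518 and 502 at 3 h and 489 and 426 at 6 h on control medium. In H2O2 they were 653 and 528 at 3 h and 541 and 308 at 6 h, and the times overlapped there. Its log2 fold change was -0.33 ± 0.15 (limma adjusted p 0.970), and that of AT5G52660 was -0.20 ± 0.19. The 3 measured clock and light output genes COR27, AT4G33980 and COR15A had -0.18 ± 0.24, -0.06 ± 0.23 and -0.11 ± 0.20. COR15A was near the floor of the array, with signals of 1.34 to 17.1 in the 8 arrays.

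**Figure D4:**
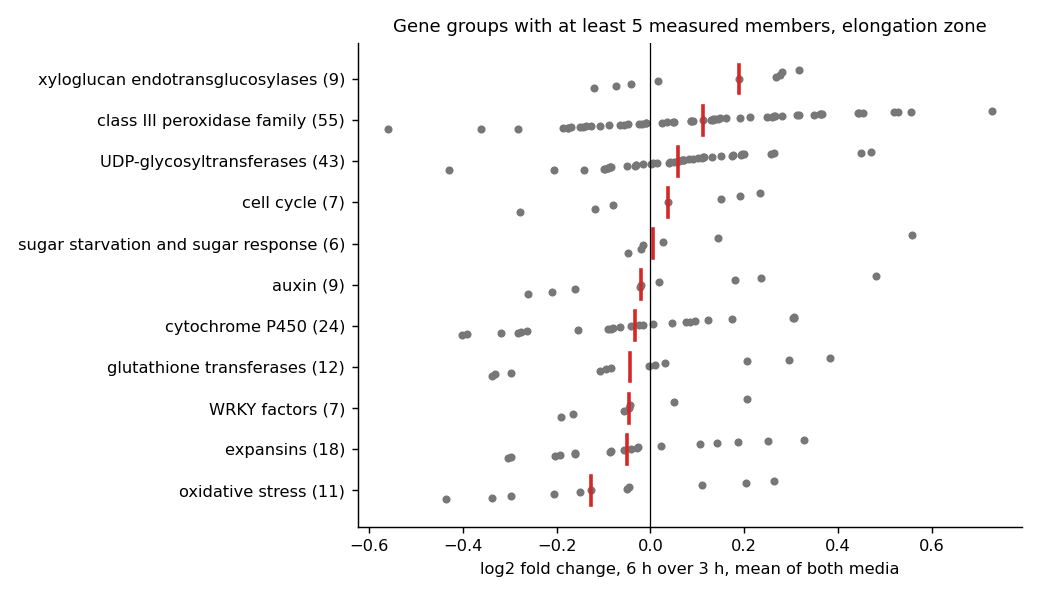
Log2 fold change of 6 h over 3 h, mean of both media (x axis), for the measured members (points) of the 11 gene lists with at least 5, with the list's median as a red bar and the number of members in brackets. Medians lie between -0.127 for oxidative stress and 0.188 for xyloglucan endotransglucosylases, and the points of every list lie on both sides of 0.

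MCCA and IVD, given as examples, were higher at 1 h than at 3 h and 6 h and had no clear change between those later times. Both act in the breakdown of leucine, a pathway known to be induced when sugar is short. MCCA had 1 h means of 483 ± 337 (SD, n = 2) on control medium and 929 ± 19.9 (n = 2) in H2O2, and ranged from 70.6 to 125 in the 8 arrays of 3 h and 6 h. IVD had 643 ± 291 (n = 2) and 1135 ± 138 (n = 2) at 1 h and ranged from 145 to 245 later. Their log2 fold changes from 3 h to 6 h were -0.05 ± 0.27 and -0.02 ± 0.21. The 2 genes do not stand for a group. The list of sugar starvation and sugar response had 6 measured members, 3 positive and 3 negative, from -0.0482 to 0.557. Of these 0 (0% of all probe sets) were called.

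Most probe sets called for H2O2 against control medium at 3 h kept their direction at 6 h, but few of them were called again. At 3 h 31 probe sets (0.136%) were called for H2O2 against control medium, 27 higher and 4 lower. On the separate arrays of 6 h, 28 of the 31 kept the sign and 7 were called again, where 13 of all probe sets (0.0572%) were called. The calls of both times rest on the same estimate of spread, which favours being called at both. The share of all probe sets that kept the sign was not worked out. The median log2 difference, turned to the direction of 3 h, was 1.44 at 3 h, where it was the basis of the choice, and 1.14 at 6 h. For 0 of the 31 was the change from 3 h to 6 h called as different between media by limma. The genes described next were picked from the 13 named ones after their values were seen.

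GSTU25, a glutathione transferase, had signals in H2O2 of 5518 and 6045 at 3 h and 4296 and 5311 at 6 h. On control medium they were 1393 and 2270 at 3 h and 1027 and 1960 at 6 h. The H2O2 arrays were above every control array at both times, and the log2 difference between media was 1.69 at 3 h and 1.74 at 6 h. GT72B1, a glucosyltransferase that conjugates xenobiotics, had signals in H2O2 of 425 and 392 at 3 h and 333 and 446 at 6 h, and on control medium of 99.4 and 109 at 3 h and 95 and 146 at 6 h. Its change from 3 h to 6 h was 0.04 ± 0.22 over both media.

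AT2G41810 was lower in H2O2 at both times. Its signals on control medium were 5666 and 4829 at 3 h and 6144 and 6697 at 6 h. In H2O2 they were 1821 and 2333 at 3 h and 2653 and 2056 at 6 h. This was 1 of the 7 called at both times, with a log2 difference of -1.34 at 3 h and -1.45 at 6 h (limma adjusted p 0.00158 at 6 h). AT4G01870 had H2O2 signals of 1761 and 2151 at 3 h and 1130 and 1762 at 6 h, over control signals of 560 and 571 at 3 h and 452 and 699 at 6 h.

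The beta-glucosidase gene BGLU15 stood apart between media at 3 h, with a log2 difference of 0.92, and had one of 0.08 at 6 h. Its H2O2 signals were 850.04 and 839 at 3 h and 504 and 469 at 6 h, and its control signals 399.7 and 479 at 3 h and 480.3 and 438 at 6 h. The H2O2 arrays of 3 h stood above the other 6, and those of 6 h overlapped with the control arrays. The log2 fold change from 3 h to 6 h was -0.78 in H2O2 and 0.06 on control medium, and the limma adjusted p of their difference was 1.00.

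**Figure D5:**
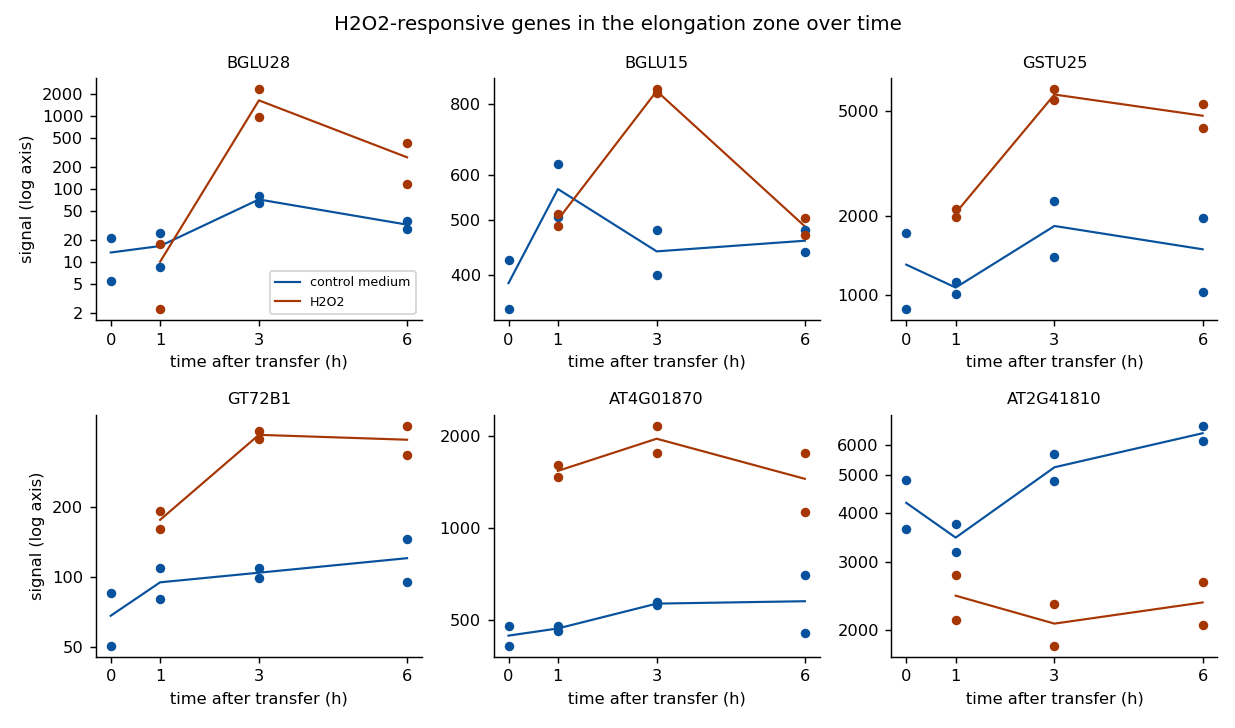
Elongation zone signal on a log axis (y axis) against time after transfer in h (x axis) for 6 genes called for H2O2 against control medium at 3 h, with points for arrays, lines through the mean of 2, and both media in colour. GSTU25, GT72B1, AT4G01870 and AT2G41810 keep the media apart from 3 h to 6 h, BGLU28 narrows and BGLU15 comes together by 6 h.

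Array-level measures were compared over the 8 arrays by exact permutation within medium, which allows 36 arrangements and no p below 0.0556. For GAPDH, whose control probe sets at the 3' and 5' ends give a sign of RNA integrity and labelling, the log2 ratio of 3' over 5' signal was -0.0351 and 0.0572 at 3 h and 0.101 and 0.0989 at 6 h on control medium. In H2O2 it was -0.178 and -0.00725 at 3 h and 0.129 and 0.118 at 6 h. All 4 arrays of 6 h lay above all 4 of 3 h (exact permutation p 0.0556, adjusted over the 12 measures 0.334). The matching log2 ratio of actin was far higher, between 3.84 and 4.19 on the 8 arrays. From 3 h to 6 h it went the other way on average, by -0.137, with overlap between the times in H2O2 (exact permutation p 0.222).

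AT1G65570, the 1 measured gene of the root cap list, had signals of 7.04 and 31.2 at 3 h and 4.41 and 3.09 at 6 h on control medium, and of 14.1 and 16.9 at 3 h and 7.95 and 5.23 at 6 h in H2O2. It was lower at 6 h in each medium (exact permutation p 0.0556, adjusted 0.334), against 243 to 796 in the meristematic zone arrays. The other 10 measures had exact permutation p-values from 0.167 to 1.0. The part of the GAPDH ratio and of root cap RNA in the differences of single genes was not tested.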

How the data were processed

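The deposited table holds 1 linear intensity per probe set and array, scaled by the authors. MAS5 and GCRMA are both named in the submitters' processing notes, with no word on which one made the values, and the build is not given in the sources used here. Every array had a mean of 250 with the lowest and highest 2% set aside. Of 22810 probe sets, 64 controls were left out. The platform's gene table paired 13513 probe sets with a single gene and 503 with several, and 8730 were absent from it. Of the 13513, 13436 matched a RefSeq locus (TAIR10.1), giving 13286 genes, each read by its brightest probe set. Probe sets can bind transcripts of relatives.

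Values were taken as log2(signal + 16). All 28 arrays (14 groups of 2 biological replicates) entered 1 limma 3.58.1 model (R 4.3.3) with a mean per group and an intensity trend. Tests were 2-sided with Benjamini-Hochberg adjustment over 22746 probe sets, and had 14 residual and 5.64 prior degrees of freedom. The fit was tested on simulated data. Among called genes up to 12 per direction were to be named, otherwise the 6 smallest p-values per direction with separated arrays. Members, lists and rules were chosen with earlier results of these data known. Of 405 entries in 18 lists 58 were measured, 22 lists came from name patterns and the peroxidase list was completed later. Alternatives were quantile and median scaling, pseudocounts, a signal minimum, other arrays in the fit, no trend, the replicate block, the zone axis as covariate and leaving out arrays. Promoter sequences were not analysed here.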

Additional observations from a re-analysis of the deposited data

How the results depend on the processing

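The count of calls for the mean of both media, 0, remained 0 with median centring, a pseudocount of 1, a mean signal of at least 50, only the arrays compared and only the 14 elongation arrays. It was 2 with quantile normalisation, 3 with a pseudocount of 64, 2 with no intensity trend, 4 with the zone axis as covariate, and 0 to 2 leaving out 1 array. With the replicate number as a block it was 9 for the mean of both media, with 260101_at, 258527_at, 251642_at and 258293_at among them, 1 for control medium and 0 for H2O2. Same-numbered arrays of 2 groups deviated together with correlations of -0.0199 to 0.199. The highest were those of 3 h with 6 h in the same medium, 0.199 on control medium and 0.183 in H2O2. The labels do not say whether the numbers pair arrays, so the block was kept as an alternative. Control medium, at 1, gave 0 with median centring, a pseudocount of 1, the signal minimum of 50, only the arrays compared, only the 14 elongation arrays or the zone axis, 2 with no trend, and 0 to 7 leaving out 1 array. H2O2, at 0, gave 2 with a pseudocount of 1, 1 with a pseudocount of 64 and 0 to 1 leaving out 1 array. The difference between media, at 0, gave 2 with a pseudocount of 1. The meristematic zone, at 0, gave 0 to 1 leaving out 1 array, and the difference between zones gave 0 in every setting run. The cause of these moves was not tested. Of 208 values of the 12 named genes under alternatives, 202 kept direction and side of the threshold, 6 passed it and 0 reversed. AT5G22860 passed with quantile normalisation (limma adjusted p 0.0457), a pseudocount of 64 (0.00219), no trend (0.0225) and the block (0.0385), AT3G18280 with the block (0.0356), and AT2G04300 without the second control array of 6 h (0.045). On each array 27.2% to 31.1% of signals were under 16, where precision is poorest relative to the level.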

Other observations

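The smallest p-values of the comparison belonged to probe sets without a gene name in the annotation used here, and 25 of the 50 leading probe sets had one. Probe set 260101_at had elongation zone means of 58.6 ± 45.8 (SD, n = 2) at 0 h, and of 463 ± 254 (n = 2) on control medium and 550 ± 132 (n = 2) in H2O2 at 1 h. Its signals were 363 and 451 at 3 h and 98.1 and 129 at 6 h on control medium, and 364 and 334 at 3 h and 57.4 and 138 at 6 h in H2O2. It was thus high at 1 h and 3 h in both media and near its 0 h level at 6 h, with a log2 fold change from 3 h to 6 h of -1.74 ± 0.30 (limma adjusted p 0.0749) and -0.75 ± 0.30 in the meristematic zone. Probe set 258527_at had 204 ± 94.1 (n = 2) at 0 h and means of 1281 and 1827 at 1 h, then 219.99 and 202 at 3 h and 53.9 and 85.9 at 6 h on control medium, and 129 and 144 at 3 h and 50.8 and 67.9 at 6 h in H2O2 (log2 fold change -1.23 ± 0.22, limma adjusted p 0.0867).

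Probe set 251642_at went the other way after 3 h. Its means were 1093 ± 70.6 (SD, n = 2) at 0 h and 2510 ± 970 and 2463 ± 145 (n = 2 each) at 1 h in control medium and H2O2. Its signals were then 380 and 339 at 3 h and 708 and 1152 at 6 h on control medium, and 217 and 262 at 3 h and 362 and 471 at 6 h in H2O2. The 3 h arrays were its lowest in both media (log2 fold change 1.03 ± 0.17, limma adjusted p 0.0575). Probe set 258293_at had signals of 6.86 and 1.48 at 3 h and 46.8 and 34.3 at 6 h on control medium, and of 15.7 and 14.8 at 3 h and 40.8 and 22.1 at 6 h in H2O2. Its log2 fold change was 1.03 ± 0.16 (limma adjusted p 0.0525), with 1.49 on control medium, where it passed the threshold (limma adjusted p 0.0392), and -0.06 ± 0.16 in the meristematic zone. None of these 4 probe sets passed for the mean of both media in the model without the replicate block.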
